A study of Mus musculus with 40 samples.

Results

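The 9 genes described here (Foxp3, Ikzf2, Ikzf4, Il2ra, Ctla4, Tnfrsf4, Tnfrsf18, Tnfrsf9 and Ccr8) are genes that regulatory T cells (Tregs) express. They were taken by symbol from a count table of 54087 genes, and all 9 passed a filter on low counts that left 14760 genes. RNA of CT26 tumor fragments, from a transplanted mouse colon carcinoma line, was sequenced from 40 mice (BALB/c by the study's text), 5 in each of 8 treatment groups. The mice, 6 to 12 weeks old, received 1000000 CT26 cells subcutaneously, were injected with mAbs 3 times (day 6, day 9 and day 12), and their tumors were collected on day 13. Control mice received an isotype control (motavizumab, mIgG2a). Anti-GARP:TGF-β1 (clone 58A2, mIgG2a) was given in a WT format, which can bind Fcγ receptors, or in the FcD (Fc-dead) format, which carries mutations that prevent this binding. Anti-TGF-β was clone 1D11, and anti-PD-1 was an Fc-silent mAb (FcS). Both formats and anti-TGF-β were each given alone and combined with anti-PD-1 FcS, which was also given alone. All mice carried the same tumor line, and each library held 1 mouse.

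Tregs are CD4+ T cells that restrain other immune cells, and FOXP3 is the transcription factor that defines them. Their surface carries GARP (gene Lrrc32), which holds latent TGF-β1 and allows its activation, and this complex is the target of the anti-GARP:TGF-β1 mAbs. An IgG that binds a cell and Fcγ receptors can lead to loss of that cell, so that the WT and FcD formats together ask whether blocking the complex or removing the cell accounts for an effect. In RNA of a whole tumor, fewer cells of a type and less RNA per cell cannot be told apart.

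Total counts per mouse ran from 11931730 to 20680548 (median 14030511). The library numbers fell into 2 parts, and each group had 2 or 3 mice in either part. In 41 to 60 the Y chromosome gene Ddx3y was at 6.86 to 33.4 counts per 1000000 (CPM), and Xist was at most at 0.428 CPM. In 61 to 80 Ddx3y was at 0 and Xist at 62.7 to 791 CPM. These are the patterns of male and of female mice, but the labels used here give no sex. Sex and library order cannot be told apart. Several libraries stood apart in genes of other cell types. The summed level of 7 B cell genes was 1.78 to 16.1 counts per 1000000 (CPM) in 34 libraries, and it was 29.4 to 110 CPM in the other 6, which were mice 42 (WT), 70 (FcD), 48 (anti-TGF-β), 47 (anti-PD-1), 77 (WT + anti-PD-1) and 68 (anti-TGF-β + anti-PD-1). Mouse 77 also had the highest sums of 11 T cell genes (382 CPM against at most 188 CPM elsewhere) and of 8 myeloid genes (3191 CPM against at most 1479 CPM elsewhere). The 4 epithelial genes taken as tumor cell markers were low in most libraries, with a median of 0.546 CPM for Epcam, which was at 0 in 7 libraries, and of 10.5 CPM for Krt18, while mouse 71 (FcD + anti-PD-1) reached 39.1 and 109 CPM. Results are therefore also given without the mice concerned where these decide a value.

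The members fell into very different ranges of abundance. Per kilobase of exon, Tnfrsf9, which encodes the costimulatory receptor 4-1BB, had a median level over the 40 mice of 24.6 reads per kilobase per 1000000 reads (RPKM), and it was above each other member in every mouse. Tnfrsf4 (OX40) and Tnfrsf18 (GITR), costimulatory receptors of the same TNF receptor superfamily encoded by neighbouring genes on chromosome 4, followed with medians of 2.47 and 2.11 RPKM. Tnfrsf4 was above Tnfrsf18 in 29 of 40 mice, so that their order was not the same in every tumor. Il2ra, which encodes a chain of the high-affinity IL-2 receptor, had a median of 0.731 RPKM. Foxp3 (0.292 RPKM), the inhibitory receptor gene Ctla4 (0.288 RPKM) and the chemokine receptor gene Ccr8 (0.281 RPKM) did not differ in order beyond the spread between mice, since Foxp3 was above Ctla4 in 22 of 40 mice and Ctla4 was above Ccr8 in 20 of 40. Ikzf2 (Helios) and Ikzf4 (Eos), zinc finger transcription factors of the Ikaros family, were lowest with medians of 0.190 and 0.126 RPKM. In the same tumors the ratio of the Tnfrsf9 level to the Foxp3 level ran from 19.9 to 466 (median 96.4). The median of Tnfrsf9 was 67.0 CPM, beside 6.50 CPM for the T cell gene Cd3e, and the cells that Tnfrsf9 came from were not tested.

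These levels rest on few reads except for Tnfrsf9. Foxp3 had 3 to 50 reads per mouse (median 17), Ikzf4 2 to 39 (median 10), Ctla4 0 to 69 (median 9.5) and Ccr8 0 to 18 (median 5), while Tnfrsf9 had 544 to 1653 reads (median 898). Ctla4 was at 0 in 2 mice and Ccr8 in 3. Counting error alone would give 16.2% of the variance of Foxp3 CPM between mice of a group, 33.6% of that of Ikzf4, 24.6% of that of Ccr8 and 1.5% of that of Tnfrsf9. The spread between mice was thus larger than the counting error for all of these genes, although intervals of Ikzf4, Ctla4 and Ccr8 remain wide.

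In GENCODE's annotation of GRCm38, Foxp3 lies on chromosome X (chrX:7573644-7595245, plus strand), and 18.6% of its exonic bases are also exonic in a gene on the same strand, Flicr, and 18.7% in genes on the other strand. Reads there may have been assigned to none of them, for genes on the other strand only if strand was not used in counting. For Tnfrsf18 (chr4:156026164-156028895, plus strand) 27.2% of the exonic bases are shared with Gm16008 on the other strand, and for the other members at most 1.24%. Tnfrsf9 (chr4:150914562-150946102, plus strand) shares none. To set the gene that defines Tregs beside the most abundant member, the 250 bases before a RefSeq transcription start (GRCm38.p6, plus strand) are given for Foxp3 (chrX:7580233-7580482) and for Tnfrsf9 (chr4:150927749-150927998), with capitals for matches, on either strand, to an NF-κB type motif of 10 letters or to TGANTCA, an AP-1 type motif.
Foxp3: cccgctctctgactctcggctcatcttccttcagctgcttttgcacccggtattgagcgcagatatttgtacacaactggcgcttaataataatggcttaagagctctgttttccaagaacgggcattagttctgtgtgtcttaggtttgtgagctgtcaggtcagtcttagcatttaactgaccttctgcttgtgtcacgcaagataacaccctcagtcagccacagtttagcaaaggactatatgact
Tnfrsf9: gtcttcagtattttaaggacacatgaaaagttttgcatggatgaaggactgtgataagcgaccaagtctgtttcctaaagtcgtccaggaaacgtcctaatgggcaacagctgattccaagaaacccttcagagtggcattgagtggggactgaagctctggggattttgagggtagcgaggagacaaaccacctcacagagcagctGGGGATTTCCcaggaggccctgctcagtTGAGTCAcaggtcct
This Tnfrsf9 window held 1 match to each motif and this Foxp3 window none. The other Tnfrsf9 window (chr4:150919905-150920154) also held none, so that the match depends on the start chosen. Of 32851 windows of this length in the RefSeq table, 1.41% held the first motif and 6.75% the second. RefSeq windows were found for 7 of the 9 members (9 windows, with 2 each for Foxp3 and Tnfrsf9), and 1 of the 9 held either motif. The letters were chosen with these sequences in view, and a match describes the sequence only.

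The comparison of the FcD with the WT format asks whether Fcγ receptor binding changes the Treg genes of the tumor. Without anti-PD-1, Foxp3 was at 3.74, 0.754, 1.01, 1.08 and 1.34 CPM in the 5 mice given anti-GARP:TGF-β1 WT, and at 1.36, 1.34, 0.212, 1.69 and 0.598 CPM in the 5 mice given FcD. The groups overlapped, and the mean of WT (1.58 ± 1.22 CPM, SD, n = 5) was raised by mouse 42, which was far above the other 4. FcD was 0.66-fold WT by edgeR's quasi-likelihood test (log2 fold change -0.59 ± 0.47, SE, 95% interval -1.55 to 0.37, Benjamini-Hochberg adjusted p = 0.999), and without mouse 42 the log2 difference was 0.01. With anti-PD-1, Foxp3 was at 1.68, 0.719, 2.21, 2.56 and 2.24 CPM with WT and at 1.87, 1.13, 3.61, 2.43 and 2.06 CPM with FcD. Here FcD was 1.18-fold WT (log2 fold change 0.24 ± 0.45, SE, 95% interval -0.68 to 1.16), and 1 FcD mouse was above all WT mice. The estimates of Foxp3 pointed opposite ways in the 2 settings, neither passed the test, and the difference between the settings was 0.83 ± 0.65 (log2, SE; edgeR, unadjusted p = 0.21). Within libraries 41 to 60 and 61 to 80 the log2 differences of Foxp3, FcD minus WT, were -0.09 and -0.78 without anti-PD-1 and 0.77 and -0.06 with it (log2 CPM with a prior count of 2).

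None of the 9 members passed an adjusted p of 0.05 (edgeR) between FcD and WT, alone or with anti-PD-1, and 0 of the 9 had an unadjusted p under 0.05. By edgeR, 0 of all 14760 genes passed the adjusted threshold in either comparison, and DESeq2 called 0 of the 31287 genes it tested. An unadjusted p under 0.05 (edgeR) was found for 1.4% and 1.3% of the 14760, so that the members stood near the background. The median log2 difference of the members, FcD minus WT, was -0.22 without anti-PD-1 and -0.09 with it, beside -0.01 and -0.02 for all genes, with 7 of 9 estimates below 0 in both. Leaving out each of the 10 mice in turn, 5 to 8 of 9 were below 0 in the first, with medians from -0.39 (without mouse 70) to -0.00 (without mouse 42). In the second, 3 (without mouse 77) to 9 of 9 (without mouse 60) were, with medians from -0.24 (without mouse 44) to 0.26 (without mouse 77). Without mouse 41, 1 of 9 had an unadjusted p under 0.05 in the first (edgeR), with a lower estimate, beside 3.53% of all genes. All 9 members overlapped between FcD and WT in both settings, as did all but 0.203% (higher) and 0.224% (lower) of all genes without anti-PD-1 and all but 0.061% in either direction with it. Averaged over both settings, the interval of FcD over WT was 0.56-fold to 1.40-fold for Foxp3, 0.67-fold to 1.11-fold for Tnfrsf4, 0.67-fold to 1.20-fold for Tnfrsf18 and 0.74-fold to 1.16-fold for Tnfrsf9. It was wider for Ctla4 (0.40-fold to 1.59-fold) and Ccr8 (0.50-fold to 2.25-fold), for which a 2-fold difference in at least 1 direction lay inside the interval.

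**Figure D1:**
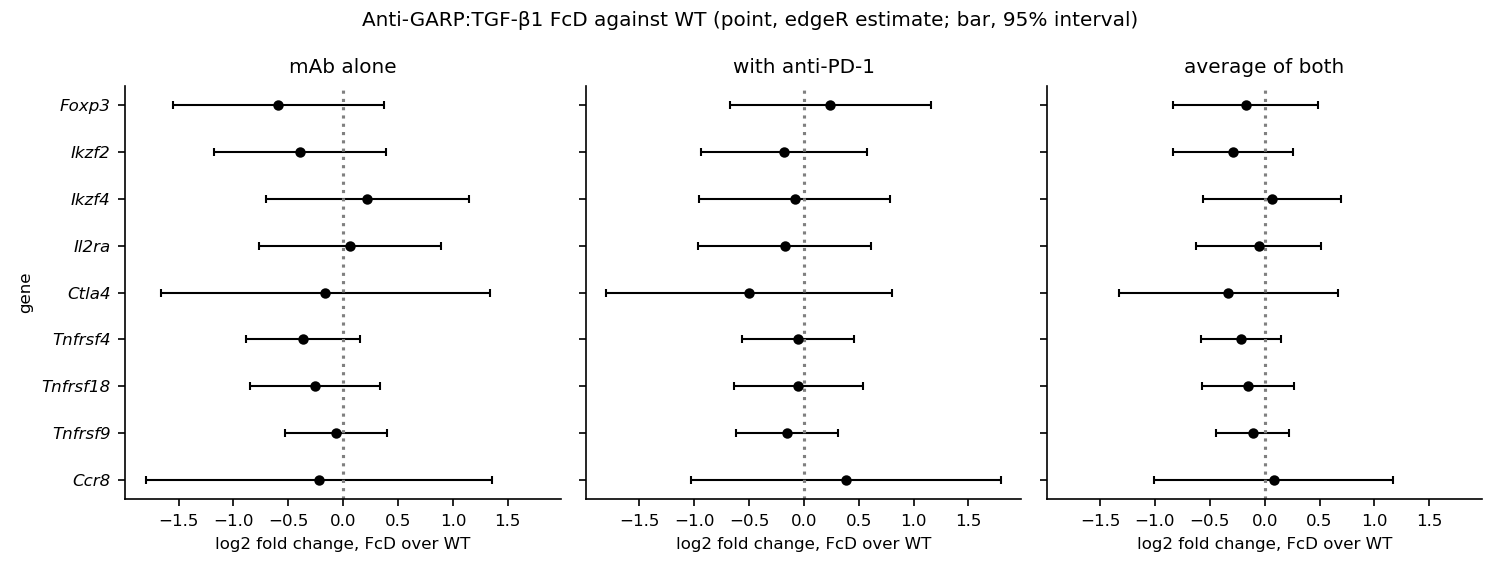
log2 fold change of each of the 9 genes (vertical axis) in anti-GARP:TGF-β1 FcD over WT mice (horizontal axis), for the mAb alone, with anti-PD-1 and averaged. Points are edgeR estimates, bars are 95% intervals, and every bar crosses 0, with Foxp3 at -0.59 in the left panel and 0.24 in the middle panel.

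Ikzf2 and Ikzf4, the other transcription factors among the members, also overlapped between formats. Ikzf2 was at 3.59, 3.82, 1.64, 1.93 and 1.42 CPM with WT and at 1.73, 1.67, 1.70, 3.25 and 1.13 CPM with FcD, a log2 difference of -0.40 ± 0.39 (SE). Ikzf4 was at 0.655 ± 0.214 CPM with WT and 0.769 ± 0.409 CPM with FcD (SD, n = 5), a log2 difference of 0.22 ± 0.45. In Ikzf4 3 of 5 FcD mice were above all WT mice and 1 was below, and with anti-PD-1 the differences were -0.18 ± 0.37 for Ikzf2 and -0.09 ± 0.43 for Ikzf4.

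The receptors also overlapped between formats. Il2ra was at 4.42, 2.59, 2.65, 2.24 and 3.0 CPM with WT and at 4.21, 5.26, 1.70, 3.31 and 1.13 CPM with FcD, with a log2 difference of 0.06 ± 0.41 (SE). The FcD mice spread wider on both sides of the WT mice, and with anti-PD-1 the difference was -0.18 ± 0.39. With anti-PD-1, Ctla4 was at 2.41, 0.462, 1.14, 1.68 and 4.30 CPM in WT mice and at 3.39, 0.603, 0.882, 0.877 and 1.26 CPM in FcD mice, and 1 mouse of each group (77 and 44) stood above the rest. The log2 differences were -0.16 ± 0.74 without and -0.50 ± 0.64 with anti-PD-1 for Ctla4, and for Ccr8 -0.22 ± 0.78 and 0.38 ± 0.70. Tnfrsf4 had the smallest p of the members (edgeR, unadjusted p = 0.16) without anti-PD-1, at 4.86, 2.83, 4.10, 3.01 and 3.67 CPM with WT and 4.33, 3.01, 2.41, 3.11 and 1.39 CPM with FcD. No FcD mouse was above all WT mice, and the log2 difference of -0.37 ± 0.26 (SE) was -0.06 ± 0.25 with anti-PD-1. Tnfrsf18 differed by -0.26 ± 0.29 and -0.05 ± 0.29, and Tnfrsf9, the best counted member, by -0.06 ± 0.23 and -0.16 ± 0.23. Tnfrsf9 was at 44.2, 66.7, 71.8, 63.8 and 93.7 CPM with WT and at 62.2, 75.3, 58.8, 82.5 and 46.6 CPM with FcD, and every FcD mouse lay within the range of the WT mice.

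Since Foxp3 of a tumor depends on its T cells, it was also set against the mean of the CD3 chain genes Cd3d, Cd3e and Cd3g, as a log2 ratio with 0.5 CPM added to both. The ratio was -1.30, -3.53, -2.90, -2.04 and -1.13 in WT mice and -2.0, -0.67, -3.37, -2.12 and -1.22 in FcD mice. Both groups spanned more than 2 log2 units, and the difference, FcD minus WT, was 0.30 ± 0.65 (SE; two-sided exact permutation p = 0.63, Benjamini-Hochberg adjusted over 9 comparisons p = 0.63). It was 1.24 within libraries 41 to 60 and -0.65 within libraries 61 to 80. With anti-PD-1 the ratio was -1.76, -1.83, -2.02, -1.01 and -4.00 with WT and -2.95, -1.45, -1.24, -1.24 and -1.59 with FcD. Mouse 77, with its 382 CPM of T cell genes, was lowest, the difference was 0.43 ± 0.59 (exact permutation p = 0.52, adjusted p = 0.58), and it was -0.04 without that mouse. Within libraries 41 to 60 and 61 to 80 it was -0.09 and 0.93. Exact tests of 5 against 5 mice could give a p no smaller than 0.00794.

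**Figure D2:**
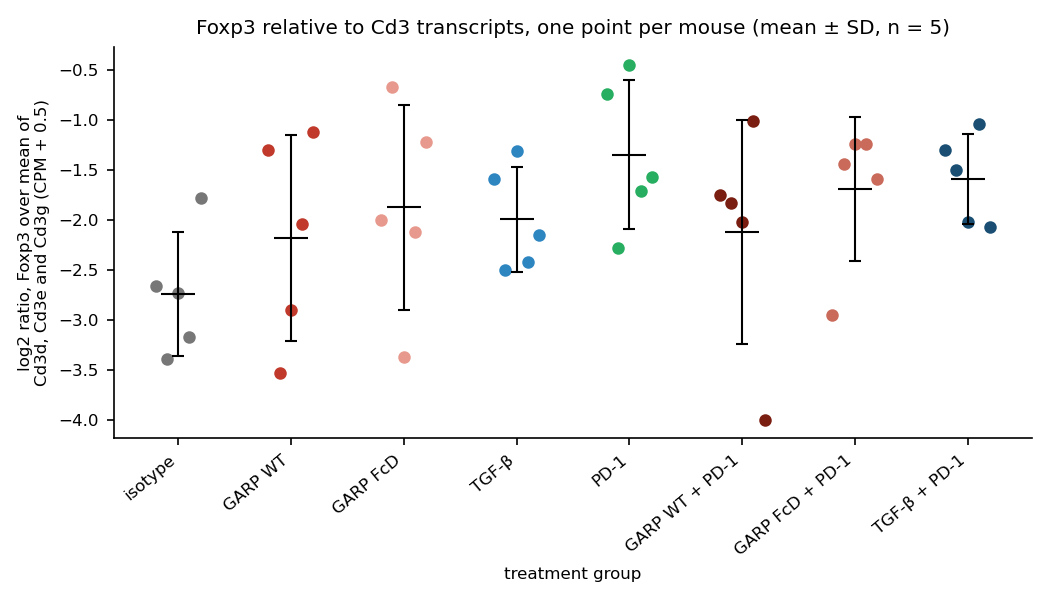
log2 ratio of Foxp3 to the mean of Cd3d, Cd3e and Cd3g (vertical axis, CPM with 0.5 added) in the 8 treatment groups (horizontal axis). Each point is 1 mouse, and bars are mean ± SD (n = 5). The isotype control had the lowest mean (-2.74), and WT and FcD overlapped with and without anti-PD-1.

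Compared with isotype mice, the members were estimated higher with both anti-GARP:TGF-β1 combinations. Foxp3 was at 1.17, 0.523, 0.625, 0.393 and 0.554 CPM in isotype mice, the lowest group mean (0.654 ± 0.303 CPM, SD, n = 5). With WT + anti-PD-1 it was 2.81-fold higher (log2 fold change 1.49 ± 0.49, SE; edgeR, adjusted p = 0.16), with 4 of 5 mice above all isotype mice, and with FcD + anti-PD-1 it was 3.32-fold higher (1.73 ± 0.49, adjusted p = 0.23), also with 4 of 5 mice above. The 5 mice with anti-TGF-β + anti-PD-1, at 3.41, 1.82, 1.21, 1.24 and 2.15 CPM, were all above the isotype mice, and Foxp3 was 2.95-fold higher (1.56 ± 0.49, adjusted p = 0.13). None of these passed the adjusted threshold. Within libraries 41 to 60 and 61 to 80 the log2 differences (log2 CPM with a prior count of 2) were 0.42 and 1.91 for WT + anti-PD-1, 1.19 and 1.86 for FcD + anti-PD-1, and 1.5 and 1.30 for anti-TGF-β + anti-PD-1.

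**Figure D3:**
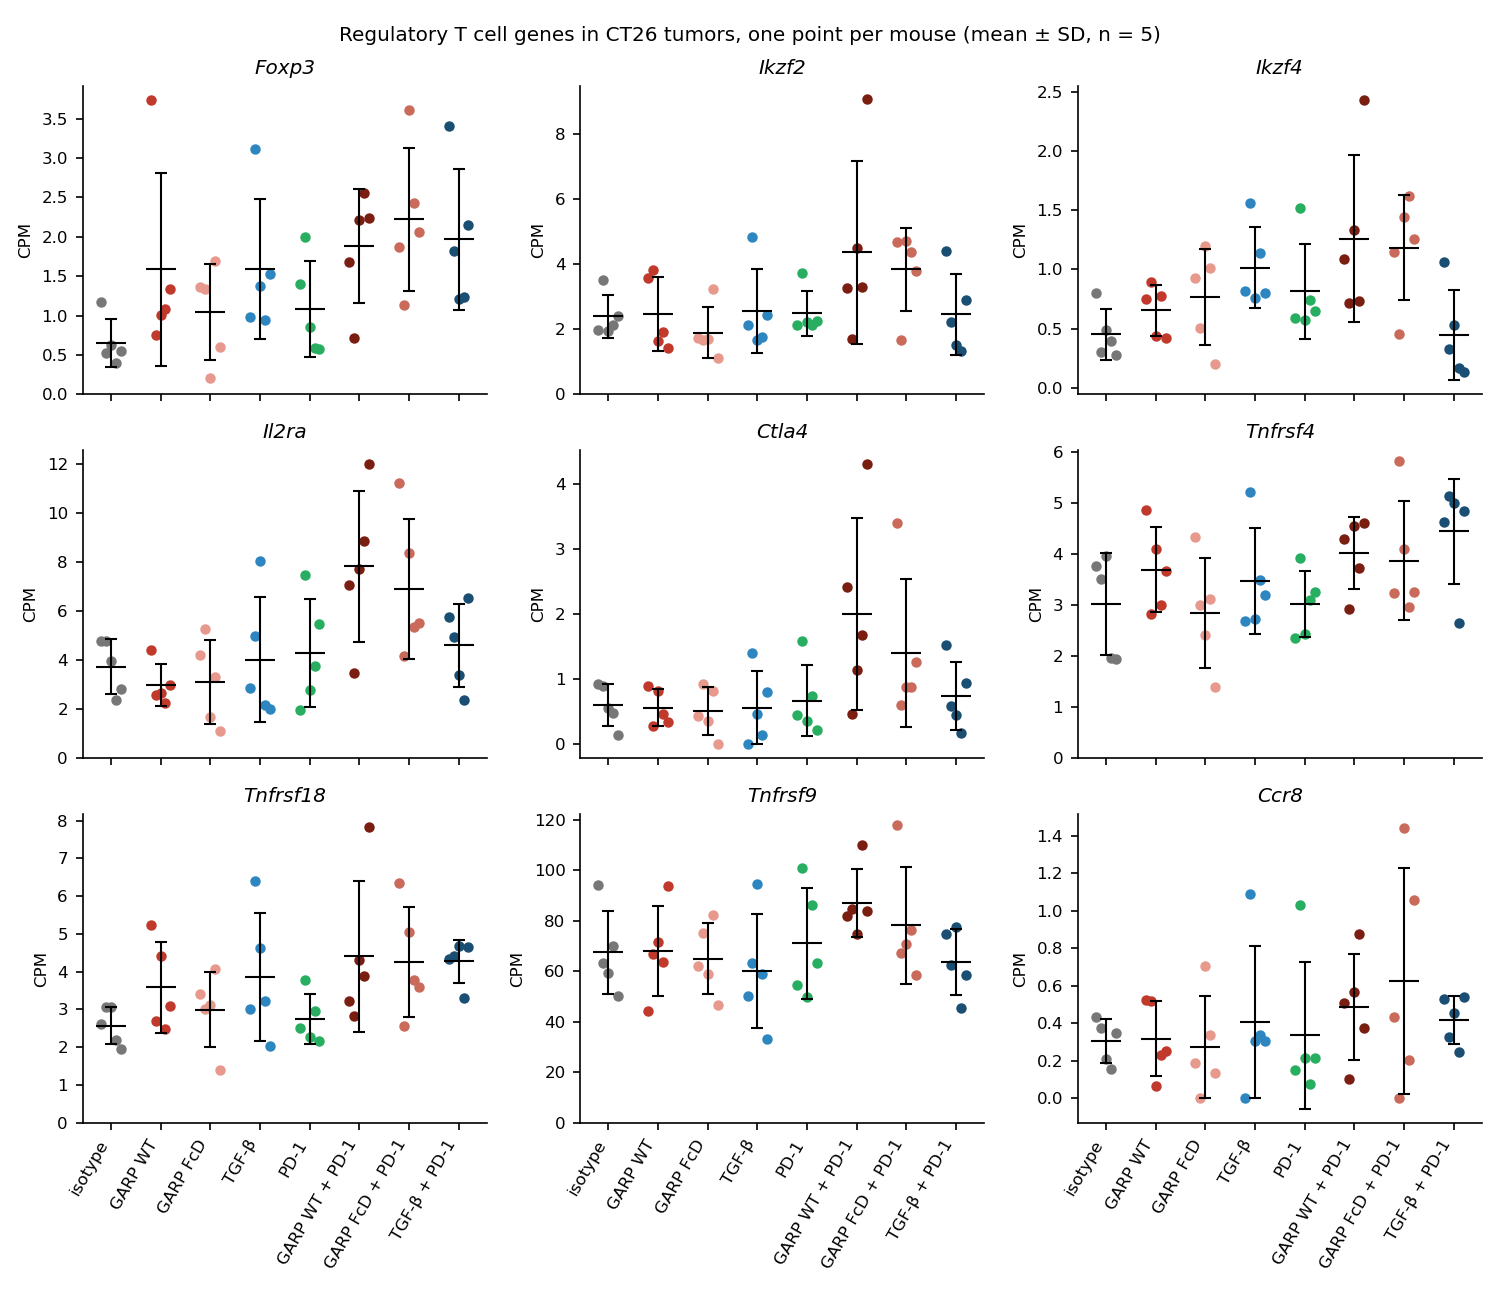
CPM of the 9 genes (vertical axes) in the 8 treatment groups (horizontal axis), with 1 point per mouse and bars for mean ± SD (n = 5). Foxp3 was lowest in isotype mice (mean 0.654 CPM) and highest with FcD + anti-PD-1 (mean 2.22 CPM), whereas the group means of Tnfrsf9 lay between 60.1 and 87.2 CPM.

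With WT + anti-PD-1, 6 of 9 members had an unadjusted p under 0.05 (edgeR), all with higher estimates, beside 13.2% of all genes in that direction, and 0 of 9 passed after adjustment (members' adjusted p from 0.16 to 0.63). Of all genes, 0 passed by edgeR and by DESeq2. The 6 were Foxp3, Ikzf4 (2.73-fold, log2 1.45 ± 0.46), Ctla4 (3.28-fold, 1.72 ± 0.69), Il2ra (2.08-fold, 1.06 ± 0.40), Ikzf2 (1.82-fold, 0.87 ± 0.38) and Tnfrsf18 (1.71-fold, 0.78 ± 0.29). Without mouse 77, 3 of 9 members had such a p, beside 2.8% of all genes, and the log2 estimates of Ikzf2, Ctla4 and Tnfrsf18 were then 0.41, 1.22 and 0.46. Within libraries 41 to 60 the log2 differences of Il2ra, Ctla4 and Ikzf2 were 0.06, 0.24 and -0.15, and within libraries 61 to 80, which hold mouse 77, they were 1.6, 2.15 and 1.20.

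With FcD + anti-PD-1, 4 of 9 members had an unadjusted p under 0.05 with a higher estimate (edgeR), beside 10.7% of all genes, and 0 of 9 passed after adjustment (adjusted p from 0.23 to 0.63), where edgeR called 0 genes in all and DESeq2 called 14 genes and no member. These were Foxp3, Ikzf4 (2.57-fold, log2 1.36 ± 0.46), Il2ra (1.84-fold, 0.88 ± 0.40) and Tnfrsf18 (1.66-fold, 0.73 ± 0.29). The count was 2 of 9 without mouse 44, beside 6.4% of all genes, and 2 of 9 without isotype mouse 78, beside 7.63% of all genes. Il2ra was at 4.76, 4.78, 3.96, 2.36 and 2.84 CPM in isotype mice, at 7.07, 3.49, 7.72, 8.84 and 12.0 CPM with WT + anti-PD-1, and at 11.2, 4.15, 8.34, 5.33 and 5.51 CPM with FcD + anti-PD-1. In either combination 4 of 5 mice were above all isotype mice and the fifth lay among them. All 9 estimates were above 0 in both combinations, with medians of 0.87 (WT) and 0.88 (FcD) beside 0.01 and -0.00 for all genes. Without the 6 mice high in B cell genes, Foxp3 passed in FcD + anti-PD-1 against isotype (log2 1.72, edgeR, adjusted p = 0.032), as did 689 of 14760 genes (4.67%), although no mouse of these groups was among the 6. The spread in this fit is estimated over all groups.

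With the anti-TGF-β combination, Foxp3 and both neighbouring TNF receptor genes were estimated higher than in isotype mice. There 3 of 9 members, Foxp3, Tnfrsf18 (1.66-fold, log2 0.73 ± 0.30) and Tnfrsf4 (1.47-fold, 0.55 ± 0.26), had an unadjusted p under 0.05 (edgeR), beside 8.49% of genes with a higher estimate, and 0 of 9 passed after adjustment (adjusted p from 0.13 to 0.96), where edgeR called 0 genes in all and DESeq2 called 139 genes and no member. Foxp3 and Tnfrsf18 did not overlap with the isotype group, as was so for 1.73% of all genes in that direction. Tnfrsf18 was at 2.60, 3.06, 3.05, 2.20 and 1.94 CPM in isotype mice and at 4.32, 4.42, 4.69, 3.29 and 4.65 CPM with anti-TGF-β + anti-PD-1. Ikzf4 was at 0.443 ± 0.379 CPM in this group and at 0.452 ± 0.213 CPM in isotype mice (SD, n = 5), while it was at 1.26 ± 0.702 CPM with WT + anti-PD-1 and at 1.19 ± 0.447 CPM with FcD + anti-PD-1. Whether the anti-TGF-β and anti-GARP:TGF-β1 combinations differ was not tested.

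**Figure D4:**
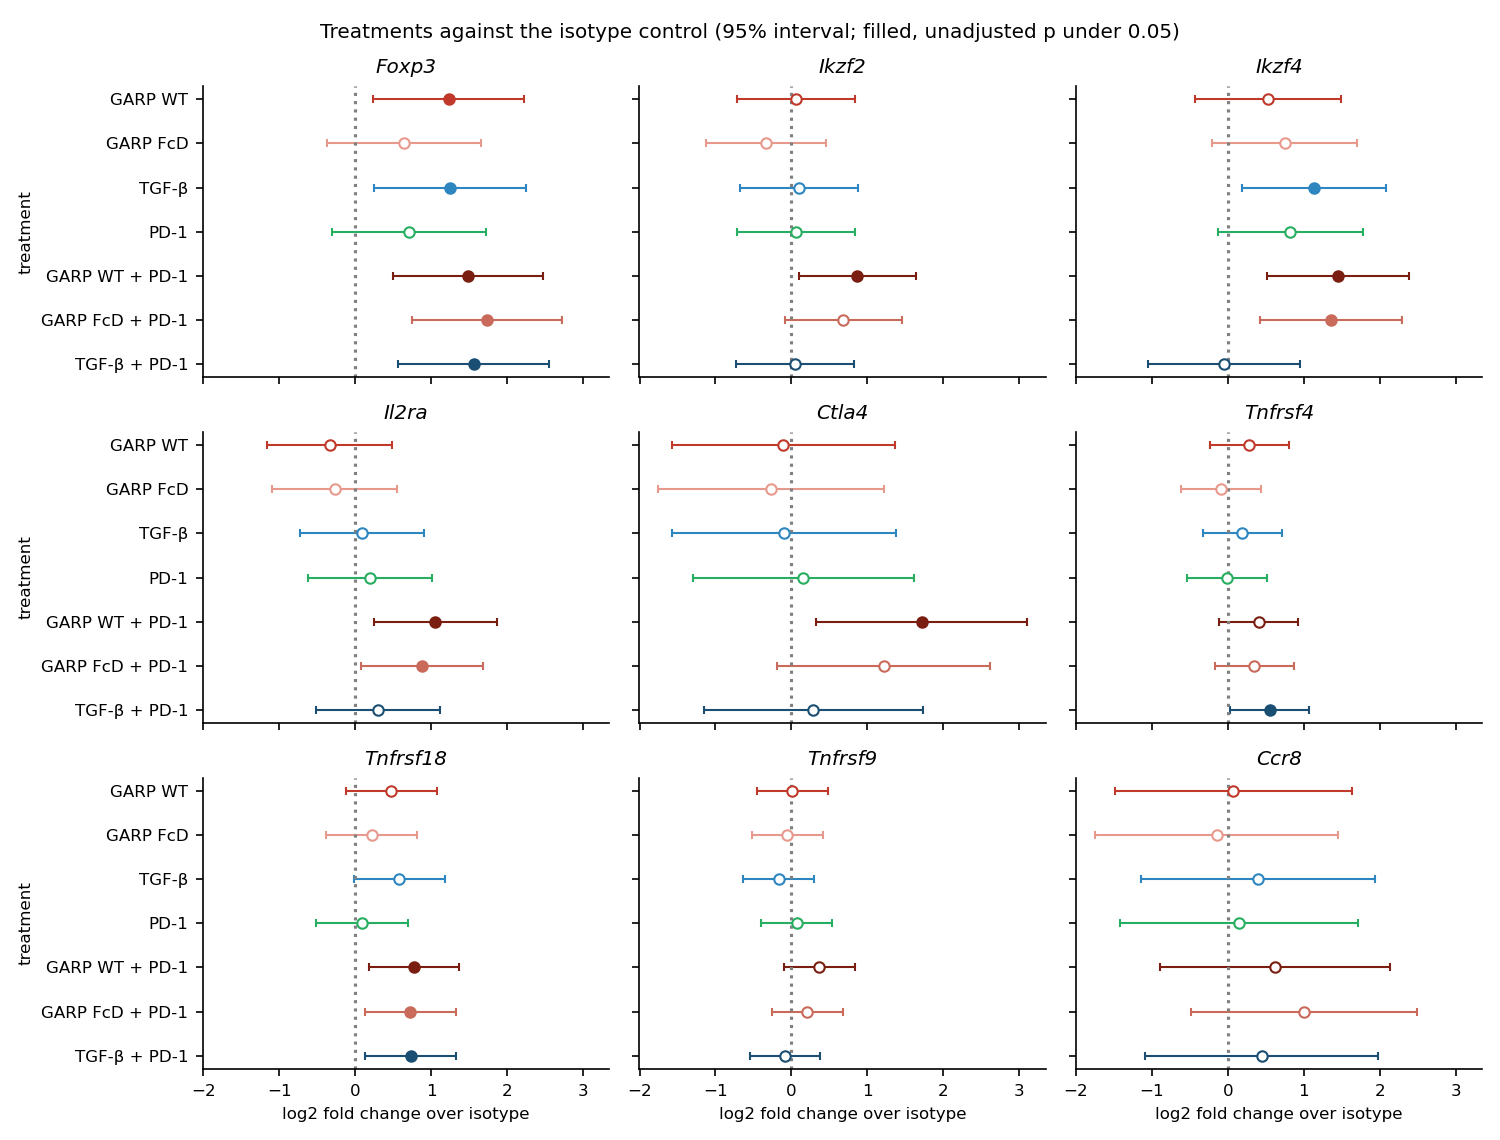
log2 fold change of each gene (panels) over the isotype control (horizontal axis) for 7 treatments (vertical axis). Points are edgeR estimates from 5 mice per group, bars are 95% intervals, and filled points have an unadjusted p under 0.05; these are 6 with WT + anti-PD-1, 4 with FcD + anti-PD-1, 3 with anti-TGF-β + anti-PD-1, 2 with anti-TGF-β and 1 with WT, and none passed after adjustment.

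The mAbs given alone were compared with the isotype control too. With anti-GARP:TGF-β1 WT alone, Foxp3 was the member with an unadjusted p under 0.05 (log2 1.24 ± 0.49, SE; edgeR, adjusted p = 1.00), beside 0.583% of all genes with a higher estimate, and the value was 0.64 without mouse 42. With FcD alone, 0 of 9 members had such a p, beside 0.474% of all genes, and Foxp3 was at a log2 of 0.65 ± 0.50. Anti-TGF-β alone gave 2 of 9, Foxp3 (1.25 ± 0.49) and Ikzf4 (1.14 ± 0.47), beside 1.77% of genes with a higher estimate. Both were lower without mouse 48, which had 3.12 CPM of Foxp3, with log2 values of 0.86 and 0.93. Anti-PD-1 alone gave 0 of 9, beside 0.955% of all genes, with Foxp3 at 0.71 ± 0.50 and Ikzf4 at 0.83 ± 0.47. In each of the 4 single treatments 0 of 14760 genes passed after adjustment by edgeR, and DESeq2 called no member.

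Adding anti-PD-1 to anti-GARP:TGF-β1 was compared within each format. For WT, 4 of 9 members had an unadjusted p under 0.05 (edgeR), all with higher estimates, beside 16.6% of all genes. These were Il2ra (log2 1.39 ± 0.40, adjusted p = 0.096), Ctla4 (1.82 ± 0.69), Ikzf2 (0.80 ± 0.38) and Ikzf4 (0.92 ± 0.44), whereas Foxp3, raised by mouse 42 in the WT group, was at 0.25 ± 0.46. None passed after adjustment by edgeR, in either format. Without mouse 77, 1 of 9 had such a p, beside 7.34% of all genes with a higher estimate. Without mouse 55, 2 of 9 passed the adjusted threshold, Il2ra and Ctla4 (edgeR, adjusted p = 0.042 and 0.047), beside 12.1% of all genes. DESeq2, run without the filter on low counts, called Il2ra here (adjusted p = 0.047), beside 1.06% of the 31287 genes it tested. For FcD, 4 of 9 members had an unadjusted p under 0.05, beside 13% of all genes with a higher estimate, and these were Il2ra (1.15 ± 0.40), Ikzf2 (1.02 ± 0.39), Foxp3 (1.09 ± 0.47) and Ctla4 (1.48 ± 0.70). With the library part as a covariate the count was 3 of 9, since Ctla4 was at 1.38 with an unadjusted p of 0.053 (edgeR). Without the 6 mice high in B cell genes, Ikzf2 passed in this comparison (log2 1.29, edgeR, adjusted p = 0.027), as did 9.01% of all genes, and mouse 70 had been the highest FcD mouse at 3.25 CPM.

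Adding an anti-GARP:TGF-β1 or anti-TGF-β mAb to anti-PD-1 was compared with anti-PD-1 alone. There, 4 of 9 members had an unadjusted p under 0.05 with WT (Ctla4, Il2ra, Ikzf2 and Tnfrsf18), beside 11.2% of genes with a higher estimate, 2 of 9 with FcD (Foxp3 and Tnfrsf18), beside 6.46%, and 2 of 9 with anti-TGF-β (Tnfrsf18 and Tnfrsf4), beside 7%. Tnfrsf18 was in all 3 counts, at log2 0.68 ± 0.29, 0.63 ± 0.29 and 0.64 ± 0.29 (SE), and the 3 comparisons share the anti-PD-1 mice. After adjustment 0 of 9 members passed in any of them by edgeR or DESeq2, and 1 gene of all (0.00678%) did by edgeR, with anti-TGF-β. Leaving out single mice moved these counts between 0 and 6, so that they rest on few animals. Without mouse 54 the counts for WT, FcD and anti-TGF-β were all 0, beside 6.95%, 3.31% and 6.25% of genes with a higher estimate. Without mouse 77 that for WT was 0, beside 2.13%, without mouse 47 that for anti-TGF-β was 0, beside 7.95%, and without mouse 52 they were 6, 5 and 3, beside 15.5%, 11.8% and 7.7%. In the test of whether WT changed the effect of anti-PD-1, Il2ra had an unadjusted p of 0.043 (log2 1.19 ± 0.57; edgeR, adjusted p = 0.48), beside 4.3% of genes with a positive term. For FcD 0 of 9 members had such a p, beside 4.49% of all genes. In a test of any difference among the 8 groups, 4 of 9 members (Il2ra, Ikzf4, Foxp3 and Ctla4) had an unadjusted p under 0.05, beside 24.7% of all genes, with adjusted p from 0.14 to 0.17 (edgeR), and 4 genes of all (0.0271%) passed, no member among them. DESeq2, run without the filter on low counts, called 1256 of 31288 genes (4.01%) here, with Il2ra among them (adjusted p = 0.031).

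Relative to CD3 genes, Foxp3 was set against the same 5 isotype mice in each of the 7 treated groups, so that these comparisons share their controls. The isotype ratios were -2.66, -3.38, -2.73, -3.17 and -1.78. The largest difference was with anti-PD-1 alone, 1.39 ± 0.43 (log2, SE; two-sided exact permutation p = 0.016, adjusted p = 0.11), followed by anti-TGF-β + anti-PD-1, 1.16 ± 0.34 (exact permutation p = 0.024, adjusted p = 0.11), and FcD + anti-PD-1, 1.05 ± 0.42 (exact permutation p = 0.048, adjusted p = 0.14). No difference passed after adjustment over the 9 comparisons. Within libraries 41 to 60 and 61 to 80 these 3 differences were 1.87 and 0.92, 1.62 and 0.85, and 1.14 and 1.14. Permuted within these parts, the exact permutation p was 0.05 with anti-TGF-β + anti-PD-1 and 0.06 with FcD + anti-PD-1. In anti-PD-1 mice the 11 T cell genes summed to 24.2 to 114 CPM (median 38.6), beside 41.4 to 96.1 CPM (median 72.8) in isotype mice, and every member had a higher ratio there, from 0.95 (Ccr8) to 1.43 (Ikzf4). Set against Cd4 in place of the CD3 genes, the differences of the 3 groups were 0.09, 0.34 and 0.25.

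Other genes of Treg function were examined with the same fits, in RNA that also holds other cells. Median levels over the 40 mice were 417 CPM for Il1rl1, 147 CPM for Cbfb, 93.4 CPM for Tnfrsf1b and 92.3 CPM for Tgfb1. Others were lower, such as Lrrc32 (4.62 CPM) and Icos (0.539 CPM), beside 1.34 CPM for Foxp3 and 6.50 CPM for Cd3e. The study also found GARP on human blood vessels, and which cells these transcripts came from was not tested. Between FcD and WT, 0 of 32 further Treg genes had an unadjusted p under 0.05 in either setting, and over the 10 mice left out in turn with anti-PD-1, 0 to 2 had such a p with a higher estimate (2 without mouse 77, beside 3.88% of all genes) and 0 to 1 with a lower one. Lrrc32, which encodes GARP, was at 4.97 CPM with WT and 3.86 CPM with FcD (log2 -0.36 ± 0.44, SE), and at 6.19 and 7.50 CPM with anti-PD-1 (0.28 ± 0.43). The log2 difference of Lrrc32 was -0.00 without mouse 42 and, with anti-PD-1, 0.81 ± 0.43 without mouse 77. Tgfb1 differed by 0.05 ± 0.16 and -0.12 ± 0.16, and Itgb8, a chain of the integrin that releases TGF-β1 from GARP, by -0.02 ± 0.40 and 0.10 ± 0.39. Neither gene of the target complex, Lrrc32 or Tgfb1, passed the test between formats. Against isotype, 12 of the 32 had such a p with WT + anti-PD-1 and 9 with FcD + anti-PD-1, all higher, and 3 higher and 2 lower with anti-TGF-β + anti-PD-1, and 0 passed after adjustment. The shares of all genes with such a p were 13.2% and 10.7% higher, and 8.49% higher and 11.6% lower with anti-TGF-β + anti-PD-1. Without mouse 77 the first count was 2 of 32, beside 2.8% of all genes with a higher estimate, and without mouse 71 the second was 3 of 32, beside 5.35%. The smallest p were those of Satb1, a chromatin organiser needed for Treg development (7.65 against 2.5 CPM, log2 1.6 ± 0.45, with WT + anti-PD-1), Tnfrsf1b, the TNF receptor TNFR2 (152 against 85.8 CPM, 0.82 ± 0.24), Cxcr3, a chemokine receptor (2.91 against 0.979 CPM, 1.56 ± 0.55), and Il2rg, the shared cytokine receptor chain (44.4 against 29.3 CPM, 0.60 ± 0.19, with anti-TGF-β + anti-PD-1). Without mouse 77 the log2 values with WT + anti-PD-1 were 1.03 ± 0.43 for Satb1, 0.34 ± 0.19 for Tnfrsf1b and 0.83 ± 0.53 for Cxcr3.

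Of 8 ligand genes of the receptors among the members, 5 passed the filter, and 0 had an unadjusted p under 0.05 between FcD and WT. Ccl8, which encodes a ligand of CCR8, was at 86.7 CPM in isotype mice, at 259 CPM with WT + anti-PD-1 (log2 1.58 ± 0.70, SE) and at 278 CPM with FcD + anti-PD-1 (1.68 ± 0.70). Tnfsf4, the OX40 ligand, was at 0.714 CPM in isotype mice and 1.53 CPM with WT + anti-PD-1 (1.08 ± 0.45). Tnfsf9, the ligand of 4-1BB, was at 19.97 CPM in isotype mice and 17.3 CPM with WT + anti-PD-1 (-0.21 ± 0.17). Of the CTLA-4 ligand genes, Cd80 was at a log2 of -0.23 ± 0.13 over isotype with WT + anti-PD-1, and Cd86 was at 0.41 ± 0.22 with anti-TGF-β + anti-PD-1. Il2, Ccl1 and Tnfsf18 did not pass the filter. The OX40 and CCR8 ligand genes were the 2 of 5 with an unadjusted p under 0.05 with WT + anti-PD-1, beside 13.2% of all genes with a higher estimate. The count was 0 without isotype mouse 74 and 1 without mouse 77. Over the mice left out in turn, the share of all genes ran from 2.8% to 17.1%. Of 3 other Ikaros family genes, Ikzf1 (0.83 ± 0.36) and Ikzf3 (1.19 ± 0.57) had an unadjusted p under 0.05 with WT + anti-PD-1 (0.18 ± 0.31 and 0.32 ± 0.54 without mouse 77), and Ikzf5 with anti-TGF-β + anti-PD-1 (-0.28 ± 0.14), beside 11.6% of all genes with a lower estimate there.

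Transcripts of other cells were estimated higher in the same comparisons, and their part in the values of the members was not tested. With WT + anti-PD-1 against isotype, an unadjusted p under 0.05 with a higher estimate was found for 3 of 11 T cell genes, 7 of 12 effector genes, 6 of 8 myeloid genes, 4 of 4 mast cell genes and 4 of 5 Fc receptor genes, and with FcD + anti-PD-1 for 1, 2, 4, 4 and 1 of these, beside 13.2% and 10.7% of all genes. Without mouse 77 the counts with WT + anti-PD-1 were 0, 2, 0, 4 and 0, beside 2.8% of all genes. With FcD + anti-PD-1 such a p was also found for 6 of 6 adipocyte genes, 3 of 4 neutrophil genes, 4 of 4 epithelial genes and 2 of 3 keratinocyte genes. Adipoq, the adipocyte hormone gene, was at 30.1 CPM there and 3.14 CPM in isotype mice (log2 3.24 ± 1.16, SE), and the neutrophil receptor gene Cxcr2 was at 4.43 and 0.902 CPM (2.26 ± 0.80). The 6 adipocyte genes summed to 86.2 to 1098 CPM (median 288) with FcD + anti-PD-1 and to 30.4 to 146 CPM (median 65.2) in isotype mice. The 4 epithelial genes summed to 5.69 to 337 CPM (median 9.80) and to 4.93 to 18.8 CPM (median 16.3). Mouse 71 was highest in both sums, and without it the counts were 2 of 6 adipocyte, 2 of 4 neutrophil, 0 of 4 epithelial, 0 of 3 keratinocyte and 0 of 8 myeloid genes. Without this mouse 4 of 9 members had an unadjusted p under 0.05 against isotype (edgeR), beside 5.35% of all genes with a higher estimate, with Foxp3 at a log2 of 1.70. Cd4 was at 1.77 CPM in isotype mice and at 3.99, 4.13 and 3.62 CPM with the WT, FcD and anti-TGF-β combinations (log2 1.17 ± 0.45, 1.22 ± 0.45 and 1.03 ± 0.45, SE), whereas Cd8a was at 15.5 CPM in isotype mice and at 26.5, 15.6 and 10.5 CPM. Cd3e was at 7.10 CPM in isotype mice and at 11.8, 7.96 and 6.45 CPM in the same groups. Without mouse 77 the means with WT + anti-PD-1 were 3.23 CPM for Cd4, 13.2 CPM for Cd8a and 5.62 CPM for Cd3e, so that Cd8a and Cd3e were then estimated lower than in isotype mice (log2 -0.24 ± 0.62 and -0.34 ± 0.51). Between FcD and WT, 11 of 11 T cell genes were estimated lower with FcD (median log2 -0.59) and 9 of 11 with anti-PD-1 (-0.49), and so were 12 of 12 (-0.44) and 10 of 12 (-0.35) effector genes, beside 7 of 9 members in both settings (-0.22 and -0.09). With anti-PD-1 this direction rested on mouse 77, since without it 0 of 11 T cell genes (median 0.36) and 0 of 12 effector genes (0.33) were estimated lower. Without mouse 44 it was stronger, with 11 of 11 T cell genes lower and medians of -0.85 (T cell) and -0.67 (effector). Without mouse 42, 10 of 11 and 12 of 12 were lower in the setting without anti-PD-1. Of the T cell genes there, Cd5 had an unadjusted p of 0.048 (log2 -0.89 ± 0.44; edgeR, adjusted p = 0.999). All 5 Fc receptor genes were estimated lower in both settings, from -0.08 (Fcgr2b) to -0.32 (Fcgr4) with anti-PD-1, with 0 of 5 under that threshold, and with anti-PD-1 all 5 were estimated higher without mouse 77.

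The 6 mice high in B cell genes were also high in Foxp3 within their groups. Mice 42, 48 and 70 had the highest Foxp3 of their groups (3.74, 3.12 and 1.69 CPM), and mice 47, 77 and 68 the second highest (1.40, 2.24 and 2.15 CPM). Of the 7 B cell genes, Cd79b and Pax5 were above 0 in all 40 libraries, Ms4a1 and Cr2 were at 0 in 7 and Fcer2a in 8, and no gene had an unadjusted p under 0.05 between FcD and WT. In the anti-TGF-β combination against isotype all 7 had such a p (0 of 7 without mouse 68), beside 8.49% of all genes with a higher estimate, and the summed level was 4.77 to 110 CPM there and 2.78 to 5.45 CPM in isotype mice. Without the 6 mice, Foxp3 with anti-TGF-β + anti-PD-1 was at a log2 of 1.52 over isotype.

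Over the 40 mice, 7 of the 8 other members were higher where Foxp3 was higher. Spearman's rho of log2 CPM with Foxp3 was 0.72 for Tnfrsf18, 0.68 for Ctla4, 0.64 for Il2ra, 0.59 for Ikzf2, 0.56 for Tnfrsf4, 0.52 for Ccr8 and 0.49 for Ikzf4, with Pearson's r of 0.67, 0.59, 0.61, 0.59, 0.60, 0.46 and 0.41. Permutation p adjusted over 13 relations were at most 0.0018 for rho and 0.012 for r, the smallest that 100000 permutations can give before adjustment being 1e-05. Tnfrsf9 did not pass, with a rho of 0.21 and an r of 0.19 (permutation p = 0.20 and 0.24). Without the 2 mice farthest from the Foxp3 median, r was 0.50 to 0.70 for the 7 and 0.19 for Tnfrsf9, and with group means removed rho was 0.38 to 0.63 for the 7 and 0.17 for Tnfrsf9. For comparison, rho was 0.70 for Cd4, 0.60 for Lrrc32, 0.39 for Cd3e, 0.34 for Cd8a and 0.57 for the summed B cell genes. Ranked among 14759 genes by rho, Tnfrsf18 was at rank 32, Cd4 at 54, Ctla4 at 98, Il2ra at 237, Ikzf2 at 594, Tnfrsf4 at 860, Ccr8 at 1218, Ikzf4 at 1542 and Tnfrsf9 at 4780, so that 10.4% of all genes had a rho at or above that of Ikzf4, and the first 10 were Slpi, Ntng2, B3gnt5, Rab37, Ccl3, Parm1, Slco2a1, Satb1, Gpx7 and Vwf (rho 0.82 to 0.76). The tumors share depth and composition, which these values do not separate. Over the 36 pairs of members the median rho was 0.51, from 0.12 for Tnfrsf9 with Ccr8 to 0.75 for Il2ra with Ctla4.

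**Figure D5:**
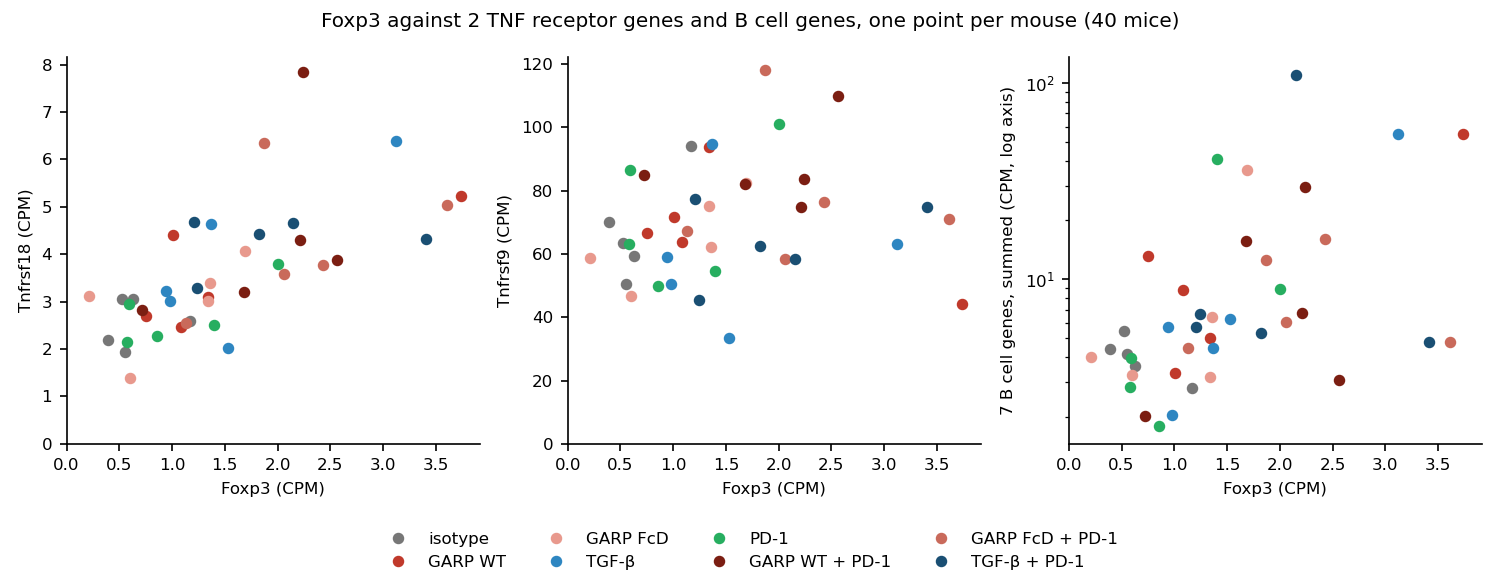
Tnfrsf18, Tnfrsf9 and 7 summed B cell genes (vertical axes, CPM, the last on a log axis) against Foxp3 (horizontal axis, CPM), with 1 point per mouse for 40 mice colored by treatment. Spearman's rho with Foxp3 was 0.72 for Tnfrsf18 and 0.21 for Tnfrsf9, and 6 mice lie above 25 CPM of B cell genes.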

How the data were processed

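Tumor RNA of 40 mice was sequenced after a stranded mRNA library preparation (paired ends of 100 bases). The authors aligned reads with STAR 2.5.3a to GRCm38 and counted them per gene with HTSeq 0.9.1, and SAMtools 1.6 is named in the submitters' processing notes. The deposited table holds raw counts, not normalized. The strand setting and the annotation release used for counting are not given in the sources used here. Levels are counts per 1000000 (CPM) or, per kilobase of GENCODE exon, RPKM. Differences were tested with edgeR 4.0.16 (quasi-likelihood, TMM, filterByExpr, robust, all 8 groups in 1 fit without covariates), with Benjamini-Hochberg adjustment over 14760 genes and a threshold of 0.05. Intervals are 95% and SEs were derived from the F statistic. The ratio of Foxp3 to CD3 genes was tested with exact permutation tests over 252 regroupings, two-sided. Alternatives were DESeq2 1.42.0 (size factors or Wald test), no filter, only the groups compared, the library part as covariate, other reference genes and pseudocounts, leaving out each mouse, and, chosen after seeing the data, leaving out 6 mice high in B cell genes. The DESeq2 Wald test was run on the 31326 genes with at least 1 count, and its shares are over the 31287 or 31288 genes with a test. Scripts were tested on simulated data. The 9 genes and the gene lists were chosen with earlier results of these data known, and the list genes named are the up to 4 with the smallest p of each list over 5 comparisons, with Lrrc32, Tgfb1, Itgb8, Cd4, Cd8a, Cd3e and the Fc receptor genes always named, and Tnfsf9 added after its values were seen; of the genes outside the lists, the 10 with the highest rank correlation with Foxp3 are named.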

Additional observations from a re-analysis of the deposited data

Results flagged for a closer look

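In 12 of 80 sets of 5 mice, 1 mouse lay far from the other 4. Its gap to the nearest, over the whole range, was above Dixon's 95% value. Each set held 1 group's values of a member (CPM) or of the log2 ratio of Foxp3 to CD3 genes. For normally distributed values chance flags about 1 in 20 sets, or 4. CPM from few reads need not be so distributed, and the sets share mice, so that 12 beside 4 cannot show an excess. Foxp3 was at 3.74 CPM in WT mouse 42, beside 0.754 to 1.34 CPM in the others, and at 3.12 CPM in anti-TGF-β mouse 48, beside 0.943 to 1.53 CPM. Ikzf2 was at 4.83 CPM in mouse 48, at 3.25 CPM in FcD mouse 70 (others 1.13 to 1.73 CPM) and at 3.72 CPM in anti-PD-1 mouse 52 (others 2.14 to 2.24 CPM). Mouse 52 also stood apart in Ikzf4 (1.52 CPM) and Ccr8 (1.03 CPM, others 0.0737 to 0.216 CPM), and it held 141 CPM of skeletal muscle genes. In anti-TGF-β + anti-PD-1 mouse 66, Tnfrsf4 (2.64 CPM) and Tnfrsf18 (3.29 CPM) were low. Ctla4 was at 3.39 CPM in FcD + anti-PD-1 mouse 44, where the log2 ratio of Foxp3 to CD3 genes was -2.95, and Tnfrsf9 was at 110 CPM in WT + anti-PD-1 mouse 69. The causes were not tested.

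The estimated effect of anti-PD-1 on Il2ra was higher by 1.19 on the log2 scale in mice with anti-GARP:TGF-β1 WT than without, at an unadjusted p of 0.043, and it did not pass adjustment (edgeR, adjusted p = 0.48). Leaving out 1 of the 20 mice in turn it was 0.98 (without mouse 77) to 1.49 (without mouse 52), with an unadjusted p of 0.05 or more in 13 of 20 cases, and without the 6 mice high in B cell genes the unadjusted p was 0.11.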

How the results depend on the processing

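No paired analysis was possible because the library numbers in the titles are unique to each mouse, and the replicate numbers 1 to 5 used here were given in accession order and tie no mice together. DESeq2 size factors moved no count of members, no filter on low counts moved 1 (the test over all groups, from 4 to 5 at an unadjusted p under 0.05), and Cd3e or Cd8a as reference left each ratio on its side of the threshold. With the library part as covariate, the counts at that p were 5 for WT + anti-PD-1 and 3 for anti-TGF-β + anti-PD-1 against anti-PD-1, 3 for FcD + anti-PD-1 against FcD and 5 over all groups (beside 17.6%, 16.9%, 20.5% and 25.1% of all genes), and 0 passed adjustment. Of 9 members, 1 passed adjustment, where 0 did otherwise, in FcD + anti-PD-1 against isotype with only the groups compared (Foxp3, edgeR adjusted p = 0.046, beside 1.3% of all genes) and without the 6 mice high in B cell genes (a setting chosen after seeing the data, 4.67% of genes), and in FcD + anti-PD-1 against FcD without these mice (Ikzf2, 9.01% of genes). By DESeq2, 1 of 9 passed in WT + anti-PD-1 against WT (Il2ra, beside 1.06% of 31287 genes). It was also 1 of 9 in the test over all groups (Il2ra, DESeq2 adjusted p = 0.031, beside 4.01% of 31288 genes). Without the 6 mice, the count at an unadjusted p under 0.05 was 0 for WT against isotype, anti-TGF-β against isotype, WT + anti-PD-1 against anti-PD-1 and the WT interaction, 1 for anti-TGF-β + anti-PD-1 against anti-PD-1 and the FcD interaction, 2 for WT + anti-PD-1 against WT and 3 for WT + anti-PD-1 against isotype. The shares of all genes, in this order, were 1.57%, 1.14%, 2.8%, 2.91%, 14.3%, 7.95%, 18.9% and 7.06%. With only the groups compared it was 2 of 8 tested for WT + anti-PD-1 against anti-PD-1, 1 of 8 for the FcD interaction, 3 of 8 for WT + anti-PD-1 against WT, and 7 of 8, 6 of 8 and 2 of 6 for the WT, FcD and anti-TGF-β combinations against isotype, beside 6.89%, 9.25%, 21.4%, 14.4%, 21.3% and 20.9% of all genes. FcD minus WT with anti-PD-1 turned to 0.27 for Ikzf2, 0.29 for Ikzf4, 0.026 for Il2ra and 0.26 for Tnfrsf18 without the 6 mice, of which mouse 77 is in this comparison.

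The log2 ratio of Foxp3 to CD3 genes, FcD minus WT, turned to -0.18 with Cd4 as reference and, with anti-PD-1, to -0.039 without the 6 mice (exact permutation p = 0.81 and 0.96). Against isotype it was 1.06 for anti-TGF-β with a pseudocount of 0.1 and 1.09 for WT + anti-PD-1 without the 6 mice (exact permutation p = 0.040 and 0.032), and with Cd4 0.086 for anti-PD-1, 0.25 for FcD + anti-PD-1 and 0.34 for anti-TGF-β + anti-PD-1. With the CD3 genes as reference and permuted within library parts, FcD + anti-PD-1 and anti-TGF-β + anti-PD-1 were at 1.05 and 1.16 (exact permutation p = 0.06 and 0.05). The causes were not tested.

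Leaving out single mice, the count of members past adjustment was 0 to 1 for anti-TGF-β + anti-PD-1 against anti-PD-1 (Ikzf4, lower, with a log2 of -1.47 without mouse 53, beside 11.8% of genes) and for the test over all groups (Ikzf4, also without mouse 53, 15.7% of genes), 0 to 2 for WT + anti-PD-1 against WT (without mouse 55, 12.1% of genes), and 0 in the other comparisons. At an unadjusted p under 0.05 it was 0 to 1 for FcD against WT, WT against isotype, FcD against isotype and anti-PD-1 against isotype, 0 to 3 for anti-TGF-β, 3 to 6 for WT + anti-PD-1, 2 to 5 for FcD + anti-PD-1 and 2 to 3 for anti-TGF-β + anti-PD-1 against isotype, 0 to 6, 0 to 5 and 0 to 3 for the same combinations against anti-PD-1, 1 to 4 for WT + anti-PD-1 against WT, 2 to 6 for FcD + anti-PD-1 against FcD, 0 to 2 for either interaction and 3 to 6 for the test over all groups. The shares of all genes at that p moved too, over 0.352% to 5.11% in the first 5 of these comparisons, 5.84% to 28.2%, 7.99% to 29.7% and 11.5% to 30.1% for the combinations against isotype, 5.37% to 25.9%, 4.74% to 25.2% and 9.38% to 28.5% against anti-PD-1, 15.2% to 37.4% and 12.6% to 33.5% for adding anti-PD-1, 2.79% to 18.6% for the interactions and 17.9% to 37.2% over all groups. The ratio, FcD minus WT, was -0.034 to 0.68 alone and -0.039 to 0.74 with anti-PD-1. Against isotype it was 0.30 to 0.90 for WT, 0.57 to 1.24 for FcD, 0.58 to 0.99 for anti-TGF-β, 1.17 to 1.64 for anti-PD-1, 0.34 to 1.09 for WT + anti-PD-1, 0.89 to 1.36 for FcD + anti-PD-1 and 1.00 to 1.40 for anti-TGF-β + anti-PD-1. FcD minus WT changed sign for Ccr8 (-0.89 to 0.066), Ctla4 (-0.47 to 0.16), Foxp3 (-0.84 to 0.0065), Il2ra (-0.20 to 0.28) and Tnfrsf9 (-0.18 to 0.078), and with anti-PD-1 for Ccr8 (-0.15 to 0.70), Foxp3 (-0.0018 to 0.40), Ikzf2 (-0.39 to 0.28), Ikzf4 (-0.24 to 0.30), Il2ra (-0.42 to 0.031), Tnfrsf18 (-0.24 to 0.26) and Tnfrsf4 (-0.25 to 0.026).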
